A study of Mus musculus with 16 samples.

Results

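Bdh2, Aldoc and Pde4c were the 3 mRNAs outside the histone genes whose polysomal signal was highest against their subpolysomal signal in eIF6 shRNA cells compared with scramble cells, among mRNAs well above background on all 16 arrays. They are 3 of 19356 genes tested, and each was found by its exact gene name and is measured by 1 probe. The members were chosen on this contrast, so their changes in translational efficiency, on polysomes and in subpolysomes are given here as a description, without a test. AML12 is a line of mouse hepatocytes. The cells expressed a scramble shRNA, as control, or one directed at eIF6. All cells, controls included, were exposed to doxycycline, which switches the shRNA on, for 48 h according to the methods, and then to insulin (100 nM in the sample description, 100 mM in the treatment protocol) for 1 h. Lysates were spread on sucrose gradients, and RNA of the lighter (subpolysomal) and heavier (polysomal) part of each gradient was hybridized separately to one-colour Agilent arrays, with 4 arrays in each of the 4 groups. The methods describe 4 biological replicates. A drop in signal from fewer expressing cells and one from less RNA per cell cannot be told apart.

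eIF6 binds the large ribosomal subunit and keeps it from joining the small one too early. An mRNA that carries many ribosomes sediments with polysomes, and one that carries few or none stays in the lighter part of the gradient. The ratio of polysomal to subpolysomal signal is therefore used as a measure of how efficiently an mRNA is translated. The 3 mRNAs encode unrelated enzymes. Bdh2 encodes a cytosolic short-chain dehydrogenase that was named for its activity on hydroxybutyrate, a ketone body. Aldoc encodes aldolase C, the isozyme of this glycolytic enzyme known from brain. Pde4c encodes a phosphodiesterase of the PDE4 family, which breaks down cAMP, the second messenger of glucagon and adrenaline in the liver.

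Each probe has 60 bases, and all 3 map to the plus strand of mm9 in the deposited files. The Bdh2 probe (transcript NM_001172055) lies at chr3:134967309-134967368, the Aldoc probe (NM_009657) at chr11:78140198-78140257 and the Pde4c probe (NM_201607) at chr8:73275002-73275061. The last 30 bases of each are shown from 5′ to 3′ because they share AATAAA, the hexamer that directs cleavage and polyadenylation of most mRNAs, marked in capitals.
Bdh2: ttctgaagctgtggtaAATAAAtcaaataa
Aldoc: gagtacatagcaAATAAAtgagagcaaaac
Pde4c: gaaagcaatggttactcacatatAATAAAt
The hexamer begins at base 47 of the Bdh2 probe, base 43 of the Aldoc probe and base 54 of the Pde4c probe, counted from the 5′ end. Searched on the printed strand of the 60 bases alone, AATAAA was present in 12.6% of all probes and in 13.9% of the probes kept after the filter on dim probes. It was present in 12 of 30 probes of the 27 other non-histone genes that met the same conditions as the members, and in 40 of 201 probes of the genes with lower translational efficiency under those conditions. Among genes with 1 kept probe, the median change in translational efficiency was 0.04 for 2009 genes with the hexamer and -0.006 for 12616 genes without it. Of the former 17 genes (0.846%) and of the latter 49 (0.388%) were called higher in translational efficiency, and 30 (1.49%) and 135 (1.07%) lower. The part of the hexamer in the results was not tested. The GC content was 35% for the Bdh2 and Pde4c probes and 45% for the Aldoc probe. Only 1.6% of kept probes had less GC than the former, against 54.2% for the latter.

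The 16 arrays had between 20179 and 24938 probes well above background (median 22524), and no spot was saturated. Each of the 4 slides held 1 array of every group. Eif6 itself, the target of the shRNA, fell by 1.05 on polysomes (log2, standard error 0.08, adjusted p = 1.46e-07 from limma) and had a subpolysomal change of 0.015. Of 20 hepatocyte markers on the arrays, 11 were well above background on all 16 arrays. Of the 15 that passed the filter, 2 were higher and 0 lower on polysomes, and 2 higher and 1 lower in subpolysomes. Of all genes, 11.1% and 10.7% were called on polysomes and 11.9% and 12.3% in subpolysomes. The 2 higher ones were Afp and Ttr, which encode the plasma proteins alpha-fetoprotein and transthyretin. They rose in eIF6 shRNA cells by 1.26 and 1.15 on polysomes and by 1.19 and 1.33 in subpolysomes. The lower one was Foxa2, with a subpolysomal change of -0.4. Alb, the mRNA of albumin, was well above background on 7 arrays, and Apoa1, Fgb and Fgg on 0. Of the 11 fibroblast and stellate cell markers that passed the filter, 10 were lower on polysomes and 7 in subpolysomes of eIF6 shRNA cells, where 10.7% and 12.3% of all genes were called lower. The log2 of their summed signal was 17.39 to 18.13 on scramble polysomes and 14.82 to 15.48 on eIF6 shRNA polysomes. In subpolysomes it was 17.07 to 17.16 in scramble cells and 15.92 to 16.22 in eIF6 shRNA cells. Bright markers weigh most in this sum. Lum, a fibroblast proteoglycan, was well above background on 0 arrays. Vim, Dcn, Des and Postn were not called in subpolysomes. The part of these markers in the results below was not tested.

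The rule left a short list. Limma called 78 genes higher in translational efficiency (0.403% of the genes tested, adjusted p under 0.05). Of these, 37 were well above background on all arrays and had no overlap between the shRNAs. Overlap was judged on polysomal minus subpolysomal differences formed by replicate number, although same-numbered arrays of the 2 fractions showed little shared deviation. Of the 37, 7 were histone genes. The call depended on the scaling and on single replicates. The number of genes called higher was 2 with spike-in scaling, where none of the 3 members was called, and 18 without normalization between arrays, where Pde4c was not called. It was 20, 24 and 28 without replicate 1, 2 or 3 of each group and 133 without replicate 4. The 3 members were called in each of these 4, which adds no support, since they were chosen on this contrast from the same arrays. Among the 30 others, Bdh2 came first with a change in translational efficiency of 1.98, then Aldoc with 1.81 and Pde4c with 1.19, all on the log2 scale. Next were B430316J06Rik (1.08), AK076764 (1.05), Gm7467 (0.91), Fhit (0.87) and 1700097N02Rik (0.83), so the gap below Pde4c is small and the one between Aldoc and Pde4c is wide. Fhit encodes a hydrolase of diadenosine triphosphate that is lost in many tumours. Its signal was lower in both fractions, with changes of -1.73 on polysomes and -2.60 in subpolysomes, and its change in translational efficiency is the difference between them. Among the 30, 18 had a higher polysomal together with a lower subpolysomal signal, Bdh2 and Pde4c among them and also Aldoc, whose lower subpolysomal signal lay within its error.

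Bdh2 differed mainly in the subpolysomal fraction, where it was lower in eIF6 shRNA cells. On the 4 scramble subpolysomal arrays its log2 signal after quantile normalization was 9.89, 9.87, 9.70 and 9.72, and on the 4 eIF6 shRNA subpolysomal arrays it was 8.07, 8.21, 8.05 and 8.43. The scramble values are all above the eIF6 shRNA values, with a gap of more than 1 unit. On polysomes the scramble values were 8.43, 8.36, 8.50 and 8.11 and the eIF6 shRNA values 8.80, 8.78, 8.66 and 8.66. Again the groups do not overlap, but here eIF6 shRNA is the higher one and the gap is narrow. The group means were 9.80 ± 0.10 and 8.19 ± 0.18 (SD, n = 4) in subpolysomes and 8.35 ± 0.17 and 8.73 ± 0.08 (SD, n = 4) on polysomes. The subpolysomal change was -1.61 (standard error 0.105), a signal 3.04-fold lower, and the polysomal change was 0.38 (standard error 0.105), 1.3-fold higher. Of the change in translational efficiency of 1.98 (standard error 0.15, 3.95-fold), 81% lay in the subpolysomal fraction. The sign of the smaller, polysomal part depended on the scaling. It was -0.095 when arrays were scaled to 7 spike-in probes, a scaling under which the median of all genes on polysomes was -0.474. After quantile normalization, higher and lower are relative to other mRNAs on the same arrays. The methods of the study describe a smaller polysome area in eIF6 shRNA cells. They add that, in a check of selected targets, relatively upregulated mRNAs had similar absolute levels. Whether this held for the members was not tested.

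The deposited intensities, before any normalization between arrays, put the larger difference of Bdh2 between the shRNAs in the same fraction. Bdh2 had intensities of 473 to 679 in scramble subpolysomes, 494 to 740 on scramble polysomes and 596 to 770 on eIF6 shRNA polysomes. These 3 ranges overlap, but polysomal arrays were brighter over the kept probes. Their median log2 intensity was 8.37 to 9.28, against 6.82 to 7.49 on subpolysomal arrays. Fractions can therefore not be set against each other in these intensities. In eIF6 shRNA subpolysomes the intensities were 139, 140, 162 and 201, below every scramble subpolysomal array. They were still above the dimmest probe called well above background, which lay between 6.65 and 12 on any array.

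Aldoc was higher on polysomes of eIF6 shRNA cells relative to other mRNAs, and its subpolysomal signal overlapped between the shRNAs. On scramble polysomes its log2 signal was 6.91, 7.15, 6.68 and 7.37, and on eIF6 shRNA polysomes it was 8.52, 8.54, 8.84 and 9.06. Every eIF6 shRNA array lies more than 1 unit above every scramble array. In subpolysomes the values were 8.98, 8.93, 9.0 and 8.68 for scramble and 8.88, 8.73, 8.75 and 8.85 for eIF6 shRNA, and the groups overlap. The means were 7.03 ± 0.30 and 8.74 ± 0.26 (SD, n = 4) on polysomes and 8.90 ± 0.15 and 8.80 ± 0.08 (SD, n = 4) in subpolysomes. The polysomal change was 1.71 (standard error 0.15), or 3.27-fold, and the subpolysomal change was -0.097 (standard error 0.15), smaller than its error. The polysomal fraction held 94.6% of the change in translational efficiency of 1.81 (standard error 0.21, 3.5-fold). The deposited intensities of Aldoc were 146 to 424 on scramble polysomes and 567 to 887 on eIF6 shRNA polysomes, without overlap, and 249 to 364 and 200 to 272 in the 2 subpolysomal groups.

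Pde4c moved in both fractions by similar amounts. In subpolysomes its log2 signal was 13.77, 13.53, 13.33 and 13.49 in scramble cells and 13.10, 12.93, 13.00 and 12.93 in eIF6 shRNA cells. On polysomes it was 9.61, 9.55, 9.69 and 9.64 in scramble cells and 10.26, 9.99, 10.42 and 10.43 in eIF6 shRNA cells. The shRNA groups do not overlap in either fraction, with eIF6 shRNA lower in subpolysomes and higher on polysomes. The means were 13.53 ± 0.18 and 12.99 ± 0.08 (SD, n = 4) in subpolysomes and 9.62 ± 0.06 and 10.28 ± 0.21 (SD, n = 4) on polysomes. The polysomal change of 0.65 (standard error 0.11, 1.57-fold) held 54.6% of the change in translational efficiency of 1.19 (standard error 0.15, 2.28-fold), and the subpolysomal change of -0.54 (standard error 0.11, 1.45-fold lower) held 45.4%. Pde4c was also the brightest of the 3 probes, with deposited intensities of 1150 to 8040, though levels of different probes cannot be set against each other. Its deposited polysomal intensities overlap between the shRNAs, from 1150 to 2250 for scramble and from 1850 to 2400 for eIF6 shRNA.

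**Figure D1:**
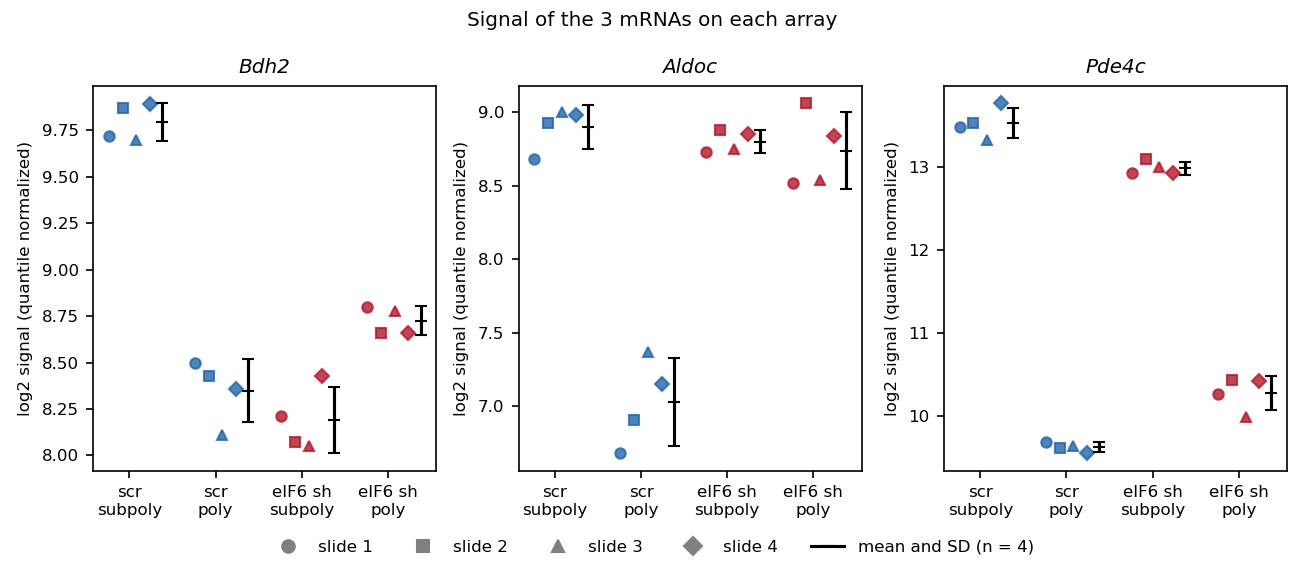
Log2 signal after quantile normalization (vertical axis, with a scale of its own in each panel) of Bdh2, Aldoc and Pde4c on each of the 16 arrays, by group, with scramble in blue, eIF6 shRNA in red, marker shapes for the 4 slides, and black bars for the mean and SD of 4 arrays. Bdh2 is lower in eIF6 shRNA subpolysomes (8.19 against 9.80), Aldoc is higher on eIF6 shRNA polysomes (8.74 against 7.03), and Pde4c differs in both fractions in opposite directions.

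The change in translational efficiency was positive on every slide, as the choice of the members on these same arrays makes likely. With the 4 arrays of 1 slide taken alone, the change in translational efficiency was 1.81, 2.04, 2.33 and 1.76 for Bdh2 on slides 1 to 4. For Aldoc it was 1.79, 2.21, 1.42 and 1.81. For Pde4c it was 1.12, 1.25, 0.68 and 1.71, which is the widest spread relative to its size, and slide 3 gave the lowest value for both Aldoc and Pde4c. The subpolysomal change of Bdh2 was between -1.81 and -1.45 on the slides and its polysomal change between 0.23 and 0.67. For Aldoc the polysomal change was between 1.16 and 2.15 and the subpolysomal change between -0.25 and 0.05, with both signs. For Pde4c the 2 ranges were 0.35 to 0.87 and -0.84 to -0.33. Leaving out 1 replicate number at a time gave changes in translational efficiency of 1.92 to 2.04 for Bdh2, 1.60 to 1.90 for Aldoc and 1.14 to 1.24 for Pde4c.

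**Figure D2:**
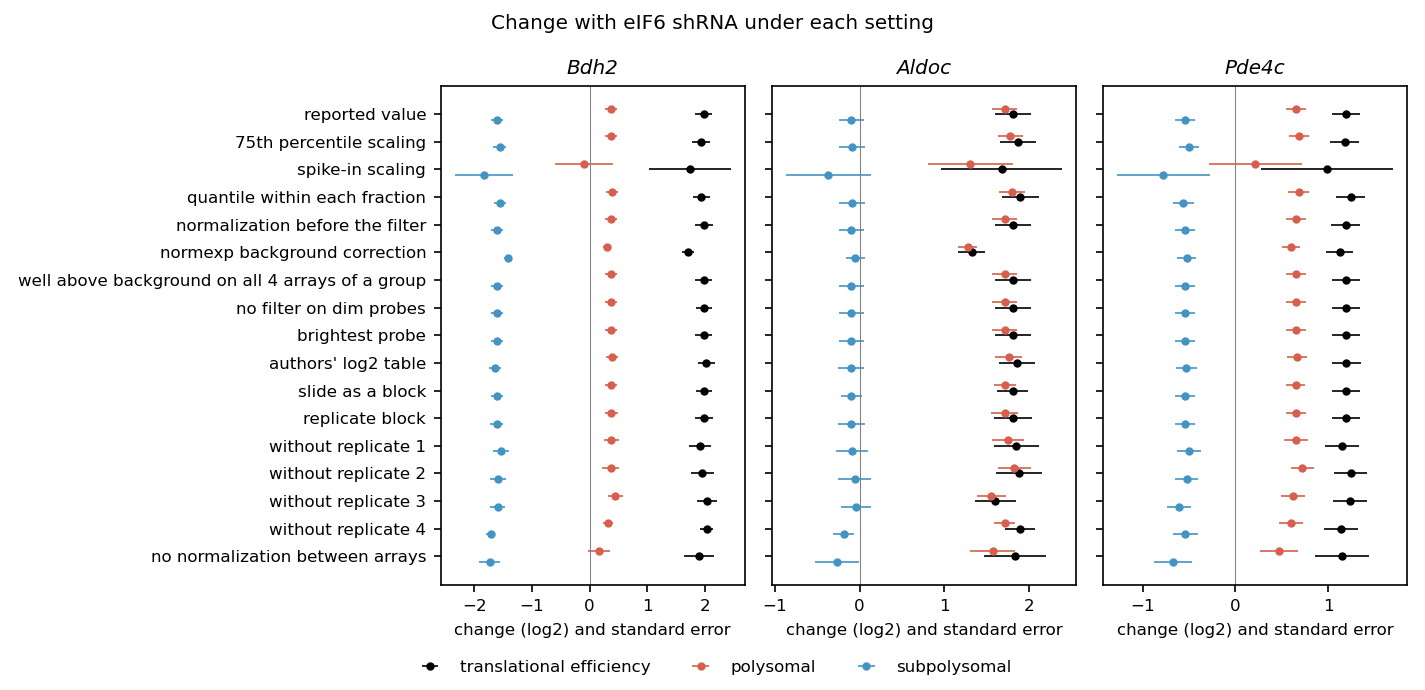
Change with eIF6 shRNA on the log2 scale (horizontal axis, one scale per panel) in translational efficiency (black), on polysomes (red) and in subpolysomes (blue) for the reported value and each other setting, with standard errors as bars. The change in translational efficiency stays above 0 in every setting, at its lowest 1.709 for Bdh2, 1.323 for Aldoc and 0.99 for Pde4c, and spike-in scaling has the widest errors and puts the polysomal change of Bdh2 at -0.095.

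Against all genes, the members lie far from the line on which both fractions change equally, which follows from their choice on this contrast. The median of all genes tested was 0.016 for the polysomal change and 0.025 for the subpolysomal change. Limma called 11.1% of genes higher and 10.7% lower on polysomes, and 11.9% higher and 12.3% lower in subpolysomes. Aldoc had the rank 140 from the top for the polysomal change of all genes and Bdh2 the rank 273 from the bottom for the subpolysomal change, while Pde4c ranked 1429 and 1876 in these orders. In translational efficiency, with histones and dim probes included, Bdh2 ranked 39, Aldoc 66 and Pde4c 224 of 19356.

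**Figure D3:**
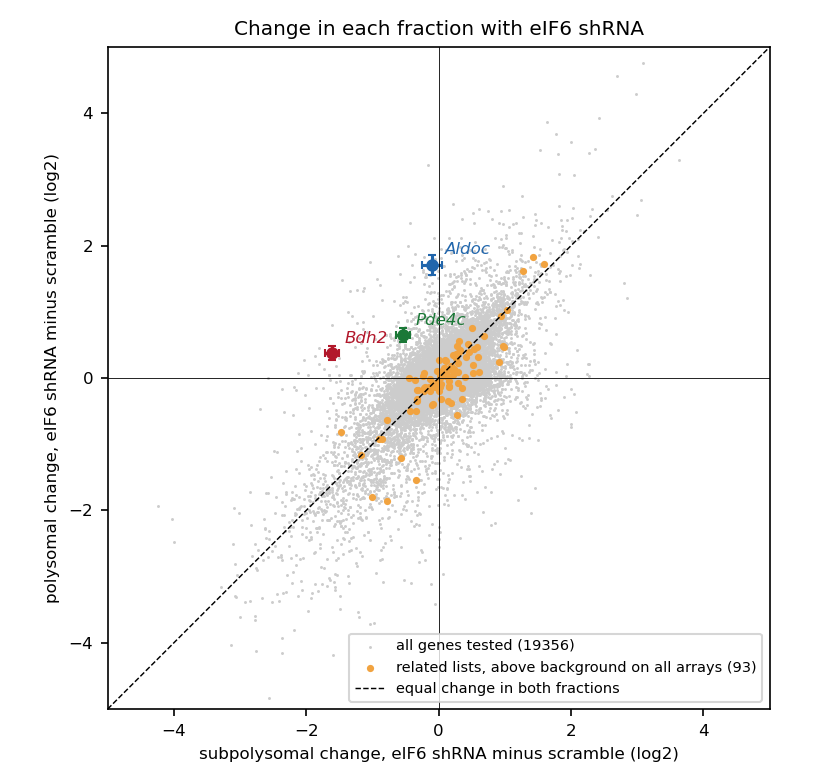
Polysomal change (vertical axis) against subpolysomal change (horizontal axis), both eIF6 shRNA minus scramble on the log2 scale, for 19356 genes in grey (6 lie outside the axes), 93 genes of related lists in orange and the 3 members with standard errors. Bdh2 lies to the left of the dashed line of equal change at -1.61 and 0.38, Aldoc straight above the origin at -0.097 and 1.71, and Pde4c between them at -0.54 and 0.65.

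In scramble cells the 3 mRNAs sat toward the light end of the gradient relative to other mRNAs. The polysomal minus subpolysomal log2 signal in scramble cells was -1.45 for Bdh2, -1.87 for Aldoc and -3.91 for Pde4c, against a median of 0.035 for all genes. Only 6.4%, 3.6% and 0.3% of genes had a lower value. In eIF6 shRNA cells the values were 0.54, -0.061 and -2.71, and 73.7%, 45.2% and 1.1% of genes were lower. Bdh2 thus crossed to the upper part of the distribution, Aldoc reached its middle, and Pde4c stayed at the low end, with subpolysomal signal 15-fold above polysomal signal in scramble cells and 6.56-fold above it in eIF6 shRNA cells. Among the 30 genes the rule left, 26 had a value below 0 in scramble cells, and part of this is built in, since a scramble value that is low by error raises the change. Because arrays of both fractions were brought to 1 distribution, these values compare an mRNA with other mRNAs and carry no information on how much RNA the polysomes held in all.

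**Figure D4:**
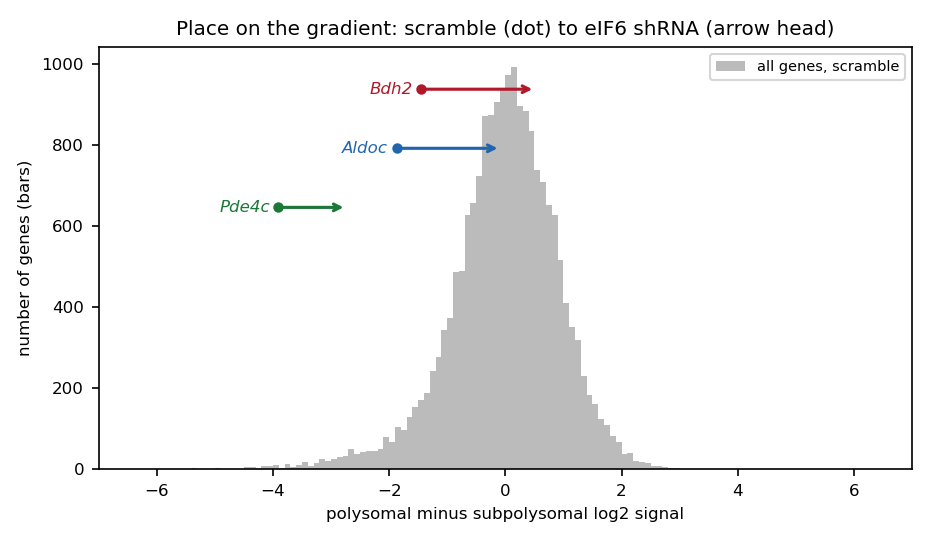
Polysomal minus subpolysomal log2 signal (horizontal axis), as a histogram over all genes tested in scramble cells (grey bars, number of genes) and, at arbitrary heights, from scramble (dot) to eIF6 shRNA (arrow head) for the 3 members. Bdh2 moves from -1.45 to 0.54 and Aldoc from -1.87 to -0.061, into the bulk of the genes, and Pde4c from -3.91 to -2.71, short of it.

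The next quantities do not enter the contrast that chose the members, although they share its residual spread. The first is the mean of the polysomal and the subpolysomal change. It fell by 0.61 for Bdh2 (standard error 0.07, adjusted p = 1.14e-05 from limma) and rose by 0.81 for Aldoc (standard error 0.11, adjusted p = 2.79e-05). For Pde4c it was 0.055 (standard error 0.08, adjusted p = 0.63), less than its error, with the gain in one fraction near the loss in the other. Limma called 33.1% of all genes in this comparison, 16.8% higher and 16.3% lower. With spike-in scaling the mean change was -0.965 for Bdh2 (adjusted p = 0.0732) and 0.468 for Aldoc (adjusted p = 0.513), and neither passed. The mean of 2 fractions is not a measurement of total mRNA, since it gives both fractions the same weight.

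The second is the polysomal minus subpolysomal signal averaged over both shRNAs. For Pde4c it was -3.31 (standard error 0.08, adjusted p = 8e-14 from limma), the rank 100 from the bottom of all genes, and it was -1.55 or lower under every setting tried. For Bdh2 it was -0.455 (adjusted p = 5.85e-05) and for Aldoc -0.965 (adjusted p = 1.06e-06), but both signs turned with spike-in scaling (to 1.16 and 0.596, where the median of all genes was 1.398), with quantiles within each fraction and without normalization. Relative to the median of all genes, both mRNAs were lower under all of these settings. Limma called 33.3% of genes lower in this comparison, so a call alone does not set an mRNA apart.

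The profiles of the 3 members over the 16 arrays were not alike. Pearson's r was 0.392 between Bdh2 and Aldoc, 0.479 between Bdh2 and Pde4c and 0.708 between Aldoc and Pde4c, over arrays that share the difference between fractions. Of 13339 genes compared, Bdh2 was most like Hist3h2ba (r = 0.887), a histone mRNA with a subpolysomal change of -1.81, followed by Paox (0.879), an oxidase of acetylated polyamines, and Ccnt1 (0.872), the cyclin of the elongation factor P-TEFb. Paox and Ccnt1 had subpolysomal changes of -0.63 and -0.41 and polysomal changes of 0.021 and -0.02, so they too differed in the light fraction, by less. The genes most like Aldoc were 9130011E15Rik (0.924), Zbtb24 (0.923), a zinc finger protein, and Cgn (0.909), the tight junction protein cingulin. Their polysomal changes were 0.571, 0.615 and 0.628, each above its subpolysomal change of 0.061, 0.14 and 0.138. Pde4c was most like Zfp658 (0.994), Plcd3 (0.993), a phospholipase C, and Eif4a2 (0.993), an RNA helicase of translation initiation. Zfp658, Plcd3 and Eif4a2 had polysomal minus subpolysomal signal of -2.69, -1.39 and -1.63 over both shRNAs, a large difference between fractions that all 4 share. The genes most like each member were picked by correlation on these same arrays. That their changes resemble those of the member is therefore partly built in.

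Most genes related to the members by function were not called in translational efficiency. The share called lower was above that of all genes, while the share called higher rests on 1 gene. Lists of glycolysis, fructose phosphates, phosphodiesterases, cAMP signalling, ketone bodies and short-chain dehydrogenases, which leave out the members, held 130 genes that were tested. In translational efficiency 1 was called higher (0.769%) and 6 lower (4.62%), against 0.403% and 1.11% of all genes. On polysomes 23 were higher (17.7%) and 24 lower (18.5%), against 11.1% and 10.7% of all genes. In subpolysomes 19 were higher and 19 lower (14.6% each), against 11.9% and 12.3%. These counts depended on single replicates. Without replicate 1, 2 or 3 of each group, 14, 12 and 13 genes were higher on polysomes, 3, 3 and 1 were lower in translational efficiency and 0 were higher. Without replicate 1, 11 genes each were higher and lower in subpolysomes.

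Among 20 glycolytic genes tested, 2 were higher and 3 lower on polysomes, 2 higher and 2 lower in subpolysomes, and 0 higher and 1 lower in translational efficiency (median -0.06, from -1.20 to 0.25). The counts in each fraction are near the shares of all genes, 11.1% higher and 10.7% lower on polysomes and 11.9% and 12.3% in subpolysomes. For translational efficiency these shares were 0.403% higher and 1.11% lower. Aldoa, the aldolase of muscle and many other tissues, had a polysomal change of 0.263 (adjusted p = 0.257 from limma), a subpolysomal change of 0.109 and a change in translational efficiency of 0.154. It sat on the polysomal side in scramble cells, at 1.30, where Aldoc was at -1.87. Ldhb, a subunit of lactate dehydrogenase, was the glycolytic gene called in translational efficiency, with -1.20 (standard error 0.17, adjusted p = 0.00155 from limma) and a polysomal change of -1.55. Pklr, the pyruvate kinase of liver and red cells, rose by 0.94 on polysomes and 0.945 in subpolysomes, so its change in translational efficiency was -0.004.

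Of 10 genes that handle fructose and fructose phosphates, 5 were higher and 2 lower on polysomes, and 3 higher and 2 lower in subpolysomes, against 11.1% and 10.7% of all genes on polysomes and 11.9% and 12.3% in subpolysomes. For translational efficiency 1 was higher and 0 lower, against 0.403% and 1.11% of all genes. Pfkfb4, which makes and removes the fructose bisphosphate that regulates glycolysis, was the 1 gene of all lists called higher in translational efficiency (0.653, standard error 0.14, adjusted p = 0.0279 from limma). Its polysomal change was -0.822 and its subpolysomal change -1.475, so the change has the form seen in Fhit, a smaller loss on polysomes. The call was lost without replicate 1, 2 or 3 of each group. Slc2a5, a fructose transporter, rose by 1.72 on polysomes and 1.59 in subpolysomes, and Sord, sorbitol dehydrogenase, by 1.03 in each.

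Among 21 phosphodiesterases, 3 were higher and 7 lower on polysomes, 1 higher and 5 lower in subpolysomes and 1 lower in translational efficiency. The shares of all genes were 11.1% and 10.7% on polysomes, 11.9% and 12.3% in subpolysomes and 0.403% higher and 1.11% lower in translational efficiency. Of these 21, 8 were well above background on all arrays. Pde4a, the family member best measured beside Pde4c, fell on polysomes (change -0.92, adjusted p = 3.73e-06 from limma) and in subpolysomes (-0.905, adjusted p = 6.34e-06), with a change in translational efficiency of -0.016 (standard error 0.13). Pde4d had 1 probe well above background on all 16 arrays, with changes of -0.43 and -0.32, and another that was well above background on 11. The 2 kept probes of Pde4b were well above background on 6 and 12 arrays and differed in sign for the change in translational efficiency, at -0.63 and 0.35. Pde2a, which cGMP stimulates, fell by 0.56 in translational efficiency (standard error 0.13, adjusted p = 0.047 from limma), and Pde1b, a calmodulin-dependent enzyme, fell in both fractions (-1.21 on polysomes, -0.57 in subpolysomes). Of 26 other genes of cAMP signalling, 3 were higher and 4 lower on polysomes, 2 higher and 5 lower in subpolysomes and 0 in either direction in translational efficiency, beside the same shares of all genes. Adcy7, an adenylyl cyclase, fell in both fractions (-1.16 on polysomes, -1.17 in subpolysomes), as did Prkar2b, a regulatory subunit of protein kinase A (-0.50 and -0.43).

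Of 14 genes of ketone body metabolism, 2 were higher and 1 lower on polysomes, 1 higher and 1 lower in subpolysomes, and 0 were called in translational efficiency. The all-gene shares were 11.1% and 10.7% on polysomes, 11.9% and 12.3% in subpolysomes and 0.403% and 1.11% in translational efficiency. Ppara, the nuclear receptor that controls ketogenesis, rose by 0.27 on polysomes (adjusted p = 0.0303 from limma). Bdh1, the mitochondrial hydroxybutyrate dehydrogenase, had 2 kept probes that were well above background on all polysomal arrays but on at most 1 array of each subpolysomal group, and its polysomal change was 0.043 (adjusted p = 0.906). Oxct1, which activates ketone bodies for oxidation, had a change in translational efficiency of -0.208 (standard error 0.30). Among 39 short-chain dehydrogenases, the superfamily of Bdh2, 8 were higher and 7 lower on polysomes, 10 higher and 4 lower in subpolysomes, and 0 higher and 4 lower in translational efficiency. Of all genes, 11.1% and 10.7%, 11.9% and 12.3%, and 0.403% and 1.11% were called in these comparisons. Hsd17b10, a mitochondrial dehydrogenase, fell by 0.68 in translational efficiency (adjusted p = 0.00949), and the carbonyl reductases Cbr2 and Cbr3 fell too, with changes of -1.07 (adjusted p = 0.00185) and -0.78 (adjusted p = 0.0121), all from limma. The fourth, Hsd11b1, which reactivates glucocorticoids, fell by 1.65 on polysomes (adjusted p = 2.38e-07) but was well above background on 0 and 1 of 4 subpolysomal arrays, which leaves its change in translational efficiency without a measured lower side. Dhrs3, a retinal reductase, rose by 1.83 on polysomes and 1.43 in subpolysomes.

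**Figure D5:**
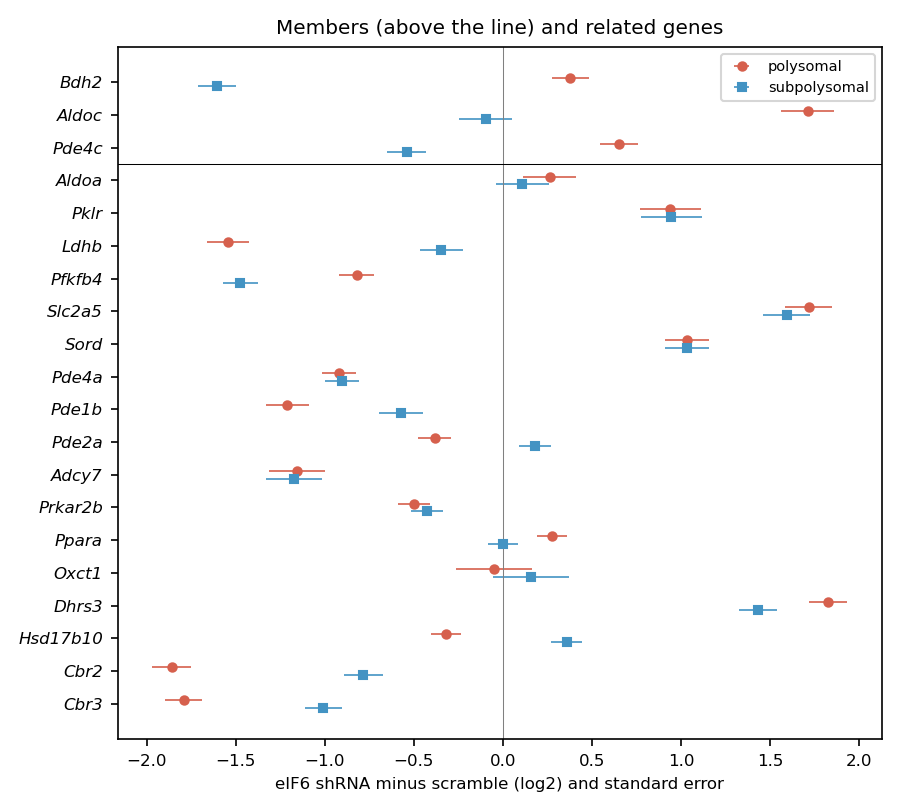
Polysomal (red circles) and subpolysomal (blue squares) change, eIF6 shRNA minus scramble on the log2 scale with standard errors, for the 3 members and 17 related genes that are well above background on all 16 arrays. The 2 changes lie far apart for Bdh2 (-1.61 and 0.38), Aldoc (-0.097 and 1.71) and Pde4c (-0.54 and 0.65), which were chosen on this difference. They nearly coincide for Pklr, Sord, Pde4a and Adcy7.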

How the data were processed

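Polysomal and subpolysomal RNA of AML12 cells was measured on 16 one-colour Agilent arrays, 4 per group. Per the file headers, the deposited intensity of each spot comes from Feature Extraction 10.7.3.1 (10.7.7.1 in the labels), background-corrected but without normalization across arrays. The headers name array design 026655, while the methods name another array. The authors also deposited log2 values, quantile normalized, whose correlation with the logged intensities was 0.9936 to 0.9999.

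Here, outlier spots were dropped (47 missing probe values) and repeated spots averaged. The filter required 2 arrays of a group to be well above background, which 25247 of 39429 probes met. Their log2 intensities were quantile normalized and averaged per gene name. Limma 3.58.1 in R 4.3.3 fitted 4 group means to all 16 arrays, with Benjamini-Hochberg adjustment over 19356 genes and a threshold of 0.05. Subtracting the subpolysomal from the polysomal change gave the change in translational efficiency. The fit was tested on simulated data. The members, gene lists and tests were chosen with earlier results of these data known.

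Besides the members, the text names the aldolase, PDE4, Bdh and Oxct genes (1 gene is not reported here), of each list the genes called in translational efficiency and up to 2 with the largest polysomal change among those called on polysomes and well above background on all arrays, the 3 genes most like each member, and the 5 next genes of the order. Alternatives were other scalings (75th percentile, 7 spike-in probes, within each fraction, none), normalization before the filter, normexp (offset 50), other filters, the brightest probe, the authors' log2 table, slide or replicate as a block, and each replicate left out. The alternative without normalization was added after seeing the data. Gene names, transcripts and mm9 coordinates were taken from the deposited files. Exon and UTR positions were not analysed here. Figures were drawn with matplotlib in Python. No pair of arrays was identical, and precision is limited by having 4 arrays per group.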

Additional observations from a re-analysis of the deposited data

Results flagged for a closer look

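In 84 groups of 4 arrays (21 genes), the highest or lowest array lay far from the others in 2, where chance alone marks about 1 group in 20. For Pfkfb4 in scramble subpolysomes, replicate 4 had a log2 signal of 10.90 and the nearest array 10.61, and the gap was 0.882 of the range of the group. For Slc2a5 in scramble subpolysomes, replicate 1 was at 6.43 and the nearest array at 6.83, a gap of 0.875 of the range. None of the 12 groups of Bdh2, Aldoc and Pde4c had such an array.

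Some related genes had changes that differed between polysomes and subpolysomes by the interaction term of limma. The difference, polysomal minus subpolysomal change on the log2 scale, was -1.07 for Cbr2, -0.78 for Cbr3, -0.68 for Hsd17b10, -1.20 for Ldhb, -0.56 for Pde2a and 0.65 for Pfkfb4.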

How the results depend on the processing

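Of the values recomputed, 289 were classed as the same, 38 as moved, 2 as no longer passing and 7 as turned in sign. These include counts of related genes, which have no direction. The mean of both fractions of Pde4c was classed as the same throughout, since it was not called in any setting. Its sign did turn, from 0.055 in the report to -0.28 with spike-in scaling and -0.097 without normalization. With spike-in scaling, changes in translational efficiency were 1.74 for Bdh2 and 0.99 for Pde4c, polysomal changes -0.095 (Bdh2, opposite in sign), 1.306 (Aldoc) and 0.215 (Pde4c), subpolysomal changes -1.835, -0.37 and -0.775, and the mean of both fractions -0.965 for Bdh2 (adjusted p = 0.0732 from limma) and 0.468 for Aldoc (adjusted p = 0.513), neither past the threshold. With a replicate left out, the adjusted p of this mean from limma was 5.9e-06 to 0.00106 for Bdh2 and 7.19e-05 to 0.000933 for Aldoc. With normexp, the change in translational efficiency was 1.709 for Bdh2 and 1.323 for Aldoc, the subpolysomal change of Bdh2 -1.409 and the polysomal change of Aldoc 1.274. Without normalization between arrays, the polysomal change was 0.165 for Bdh2 and 0.475 for Pde4c. The polysomal minus subpolysomal signal averaged over both shRNAs turned positive for Bdh2 (1.16 with spike-in scaling, 1.132 with quantiles within each fraction, 1.148 without normalization) and for Aldoc (0.596, 0.575 and 0.583). The median of all genes was then 1.398, 1.387 and 1.386. It was -0.227 with 75th percentile scaling, where both signs held. The cause of the other shifts was not tested.

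Among related genes called higher or lower on polysomes (23 and 24 in the report), spike-in scaling left 1 and 10, and no normalization left 7 higher. In subpolysomes (19 and 19), spike-in scaling left 0 and 2, and no normalization 5 and 12. In translational efficiency, the 1 gene called higher became 0 with 75th percentile scaling, spike-in scaling, no filter on dim probes, the replicate block and no normalization, and the 6 called lower became 0 with spike-in scaling and 1 without normalization.

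Over all genes, 78 were called higher and 214 lower in translational efficiency. The counts were 2 and 31 with spike-in scaling, 18 and 55 without normalization, 175 and 390 with normexp, 130 and 336 with quantiles within each fraction, 59 and 419 with 75th percentile scaling, 55 and 142 without the filter, and 20 to 133 and 54 to 213 with a replicate left out. All 3 members were called in each of these except with spike-in scaling (none) and without normalization (not Pde4c). These calls add no support, since the members were chosen on this contrast.

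Leaving out each replicate in turn gave, for Bdh2, Aldoc and Pde4c in this order, changes in translational efficiency of 1.915 to 2.037, 1.599 to 1.896 and 1.141 to 1.244. Polysomal changes were 0.319 to 0.447, 1.555 to 1.825 and 0.604 to 0.723. Subpolysomal changes were -1.712 to -1.535, -0.186 to -0.044 and -0.61 to -0.496. The counts of related genes were 12 to 27 higher and 16 to 24 lower on polysomes, 11 to 28 and 11 to 18 in subpolysomes, and 0 to 1 and 1 to 5 in translational efficiency.

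Replicate numbers were not used to pair the arrays in the main fit. Deviations of same-numbered arrays correlated at -0.039 to 0.412 between the 2 polysomal groups, where 2 of 4 pairs matched best by number. Between the 2 scramble groups they correlated at -0.157 to -0.004, with 0 such pairs. Whether same-numbered arrays came from 1 gradient cannot be told from these correlations. In this balanced design a replicate block cannot move the values (1.983, 1.807 and 1.192), and with it the standard errors were 0.159, 0.222 and 0.154, and 65 genes were called higher and 216 lower in translational efficiency. The lowest deposited intensities, 139 for Bdh2, 146 for Aldoc and 1150 for Pde4c, lay above the dimmest probe called well above background on any array (6.65 to 12).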
